A study of Mus musculus with 4 samples.

Results

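The genes that carry, receive and restrain Wnt signals were compared between retinas of mouse embryos labelled wild-type and Foxn3KO. Members were chosen by symbol from the deposited gene table: symbols that begin with Wnt, Fzd, Sfrp or Dkk followed by a digit, plus a fixed set of co-receptors, antagonists, R-spondin axis genes, planar polarity genes, β-catenin, destruction complex genes and Tcf/Lef factors. The rule found 50 of 18471 genes, and Rspo1 and Rspo3, which it also names, were not analysed here. Of these, 49 are pathway genes and 1, Fzd10os, is an antisense transcript that the rule takes in by its name. The Foxn3KO embryos carried, on both copies of Foxn3, an allele without exon 3 (C57BL/6NJ-Foxn3em1(IMPC)Bay/Mmnc), and both groups were collected at embryonic day 19. Each of the 4 libraries, 2 per genotype, came from the total RNA of the retina of an individual genotyped embryo, and no agent or treatment is named. The labels name no restriction of the deletion to a tissue.

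Wnt proteins are secreted, lipid-modified ligands that bind Frizzled receptors together with the co-receptors Lrp5 and Lrp6. In the canonical branch, Dishevelled then blocks the destruction complex of Axin and Apc, so that β-catenin accumulates and acts in the nucleus with Tcf/Lef factors. Secreted antagonists bind the ligands (Sfrp proteins, Frzb, Wif1) or the co-receptors (Dkk proteins), and R-spondins acting through Lgr receptors keep Frizzled on the cell surface by removing the ubiquitin ligases Rnf43 and Znrf3. A noncanonical branch uses Vangl and Celsr proteins to orient cells and cilia within an epithelium. In the eye, canonical Wnt signals are known for the ciliary margin and the pigment epithelium, and Fzd5 for progenitors of the neural retina.

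The libraries held 22543531 to 29360129 counts. Foxn3 itself had 2421 and 2712 counts in the wild-type group and 4181 and 3219 in the Foxn3KO group, so the targeted gene was not lower by gene-level counts, which do not resolve exon 3. The groups are therefore named by their labels, and every direction rests on those labels. Wild-type replicate 1 differed from the other 3 libraries in sex-linked transcripts, with 83073 Xist counts against 9 to 19 and 0 Ddx3y counts against 1780 to 2317. By these transcripts it was female and the other 3 were male, so sex was not balanced between the genotypes. Only the fit without wild-type replicate 1 compares libraries of the same sex, and it leaves 1 wild-type library. The part of sex in the results below was not tested. Replicates differed by more than sampling noise: a chi-square averaged over genes came to 10.06 for the wild-type pair and 1.887 for the Foxn3KO pair. Counting noise alone gives about 1. The average includes Xist and Ddx3y, whose difference between the wild-type replicates raises the wild-type value. That value is therefore not a measure of general replicate noise, and the share due to sex-linked transcripts was not computed. The retinal identity list had summed levels of 4500 and 4707 CPM (reads relative to the TMM-adjusted library size) in wild-type and 4612 and 4664 CPM in Foxn3KO.

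Some markers of neighbouring tissue moved with genotype. Among all tested genes, 12.3% were called higher and 9.66% lower by edgeR at an adjusted p under 0.05. The summed level of 11 lens genes was 8.23 and 74.8 CPM in wild-type and 313.1 and 312.9 CPM in Foxn3KO, with 9 of 10 tested genes called higher. Pigment epithelium genes summed to 95.9 and 125.5 CPM in wild-type and 77.3 and 79.3 CPM in Foxn3KO. Of 10 tested genes, 5 were called lower: Pmel, Rgr, Rlbp1, Ttr and Tyr. Rlbp1 alone had 37.9 and 41.7 CPM in wild-type and 32.2 CPM in each Foxn3KO library. Of those not called, Mitf and Best1 had positive log2 fold changes (0.26 and 0.15) and Dct, Tyrp1 and Mlana negative ones. Rpe65, a defining marker, was not analysed here. Ciliary margin genes summed to 738 to 770 CPM in wild-type and 767 to 773 CPM in Foxn3KO, with 4 of 11 called higher (Gja1, Mab21l2, Msx1 and Otx1) and 2 lower (Cdon and Rdh10). Astrocyte genes summed to 269.7 to 274.3 CPM in wild-type and 204 to 207 CPM in Foxn3KO, with 2 of 6 called lower. These were Gfap, with means of 30.01 CPM in wild-type and 14.8 CPM in Foxn3KO (log2 fold change -1.02, adjusted p = 7.17e-08 by edgeR), and the more abundant Slc1a3 (-0.40, 1.78e-06), which other glia and progenitors also express. Endothelial and pericyte genes summed to 402 to 416 and 392 to 400.1 CPM, mostly Kdr, which was not called. In that list 3 of 11 were called higher, all at low levels: Pecam1 (log2 fold change 1.07, adjusted p = 0.015 by edgeR), Tek (1.75, 0.0166) and Rgs5 (0.71, 0.0193). Of its other defining markers, Cdh5, Emcn and Esam stayed under 1.2 CPM in every library and were not called. Cldn5, Pdgfrb and Egfl7, at higher levels than the risen genes, were not called either (log2 fold changes -0.11, 0.03 and 0.09). Surface ectoderm genes summed to 25.97 and 26.7 CPM in wild-type and 29.6 and 31.7 CPM in Foxn3KO. Of its 5 tested genes, Cdh1 was called higher (log2 fold change 2.23, adjusted p = 1.40e-07 by edgeR) and Krt18 lower (-0.51, 0.0179). Muscle genes summed to 6.39 to 8.79 CPM over the libraries, with 2 of 5 tested genes called lower. The part of these marker genes in the results below was not tested. In bulk retina, fewer cells of a type and less RNA per cell cannot be told apart.

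Regulatory sequence was available for part of the members. RefSeq promoters on GRCm38.p6 matched 31 of the 50 members by symbol, and 5 of the 10 members past the test threshold below. The 250 bases before the annotated start are shown for the 3 of those 5 in which a searched motif was found, because these are genes whose levels differed between genotypes. Both strands were searched for the forkhead motif, written TGTTTAC. A shorter letter group that some forkhead proteins also bind, GACGC, was searched as well. Part of the X-box that Rfx factors bind was searched as GTTGCC. The core of the site that Tcf/Lef factors bind was searched as CTTTGA. Capitals mark a match, and the submitters' notes name a different build (mm39) for the counts.
Dvl1: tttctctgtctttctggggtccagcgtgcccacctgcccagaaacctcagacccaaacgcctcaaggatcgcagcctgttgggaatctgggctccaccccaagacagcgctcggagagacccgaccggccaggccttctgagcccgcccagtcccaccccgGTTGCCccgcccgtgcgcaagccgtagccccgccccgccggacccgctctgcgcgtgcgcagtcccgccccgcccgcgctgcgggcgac
Fzd1: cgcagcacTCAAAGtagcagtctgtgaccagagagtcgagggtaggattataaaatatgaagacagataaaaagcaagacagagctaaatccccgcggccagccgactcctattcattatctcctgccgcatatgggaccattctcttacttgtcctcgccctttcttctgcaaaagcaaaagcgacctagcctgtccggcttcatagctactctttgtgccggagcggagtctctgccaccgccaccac
Fzd5: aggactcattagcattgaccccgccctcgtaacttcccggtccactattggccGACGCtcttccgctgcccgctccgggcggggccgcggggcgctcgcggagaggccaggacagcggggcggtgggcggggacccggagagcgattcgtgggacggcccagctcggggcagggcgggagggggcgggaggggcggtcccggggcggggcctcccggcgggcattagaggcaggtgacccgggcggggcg
The Dvl1 window is chr4:155847152-155847401 on the plus strand and holds the X-box part. The Fzd1 window is chr5:4758217-4758466 on the minus strand and holds the Tcf/Lef core on the opposite strand. The Fzd5 window is chr1:64737751-64738000 on the minus strand and holds the short forkhead letters. None of the 3 matches overlaps another motif. The 41 member promoters include alternative starts, and some of their windows overlap. Of these promoters, 14 (34.1%) held the short forkhead letters against 22.6% of all 32851 promoters of the same length. The 14 count the same Lef1 match more than once, and by gene 12 of the 31 members held the letters. Of the 41 promoters, the X-box part was in 3 (7.32%) against 10.4% of all promoters. The Tcf/Lef core was in 5 (12.2%) against 13.8%, and the longer forkhead motif in 0 against 3.17%. These matches are descriptions of letters and not of binding.

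The pathway had a steep order of levels in the retina. Levels between genes are compared on the authors' FPKM, which divide by gene length. Dkk3, a divergent Dickkopf family member, was the highest at 291.9 ± 3.92 FPKM in wild-type and 291.9 ± 1.54 in Foxn3KO (SD, n = 2 each). Ctnnb1, which encodes β-catenin, followed at 208 ± 1.56 and 206.4 ± 2.14 FPKM. Next was Fzd5 at 44.97 ± 1.03 FPKM in wild-type and 39.9 ± 0.259 in Foxn3KO. Below it came Sfrp2 (24.1 ± 1.02 and 27.3 ± 2.04 FPKM), and then Lgr4, Apc and Dvl1, which lay between 19.39 and 23.4 FPKM in all libraries and whose ranges over the 4 libraries overlapped. Of the 50 members, 14 had a mean of at least 10 FPKM and 18 a mean under 1 FPKM, and none had 0 counts in any library.

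**Figure D1:**
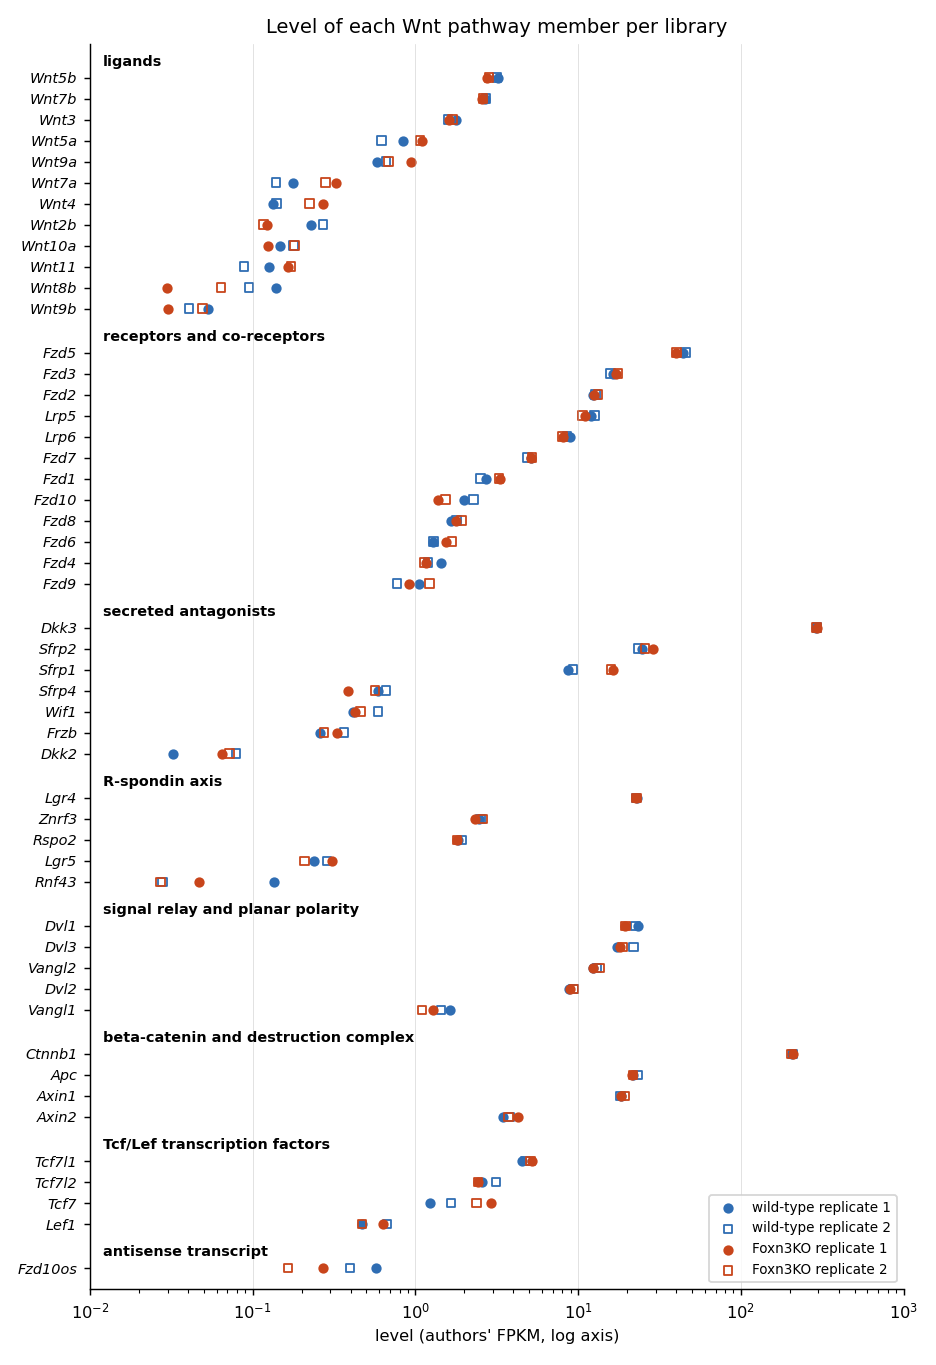
Level of all 50 members in each library, in the authors' FPKM on a log axis, grouped by role and ordered by mean. Blue marks wild-type and red Foxn3KO, filled circles replicate 1 and open squares replicate 2. Dkk3 and Ctnnb1 have means of 291.9 and 207.2 FPKM, and 7 of the 12 ligands lie under 0.5 FPKM.

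Ligand transcripts were scarce beside their receptors. The 12 ligands together summed to 10.1 and 9.71 FPKM in the wild-type libraries and 9.996 and 9.96 in the Foxn3KO libraries, while the 10 Frizzled genes summed to 88.1 and 89.0 FPKM in wild-type and 84.6 and 86.9 in Foxn3KO. Wnt5b, Wnt7b and Wnt3 made up most of the ligand sum, with 32.2%, 27.3% and 17.0% of it in wild-type and 27.9%, 25.8% and 16.5% in Foxn3KO. Fzd5 alone held 50.8% ± 0.784 of the Frizzled sum in wild-type and 46.6% ± 0.579 in Foxn3KO (SD, n = 2 each). Fzd3, which is known for axon guidance and planar polarity, came next with 18.1% and 20.2%, and Fzd2 held 14.2% and 15.1%.

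Of the 50 members, 46 passed the filter on low counts and were tested with edgeR's quasi-likelihood test over all genes. At an adjusted p (Benjamini-Hochberg over all tested genes) under 0.05, 10 of the 46 were called, 4 higher and 6 lower in Foxn3KO. That is 21.7% of the tested members, where 21.9% of all 17300 tested genes were called (12.3% higher and 9.66% lower), so the share called is at the background and is not a result about the pathway. The median log2 fold change of the tested members was -0.01, against -0.0047 for all tested genes. The 4 members that the filter removed, Wnt8b, Wnt9b, Dkk2 and Rnf43, had 3 to 22 counts per library. The members that differed are given below by their role in the pathway.

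**Figure D2:**
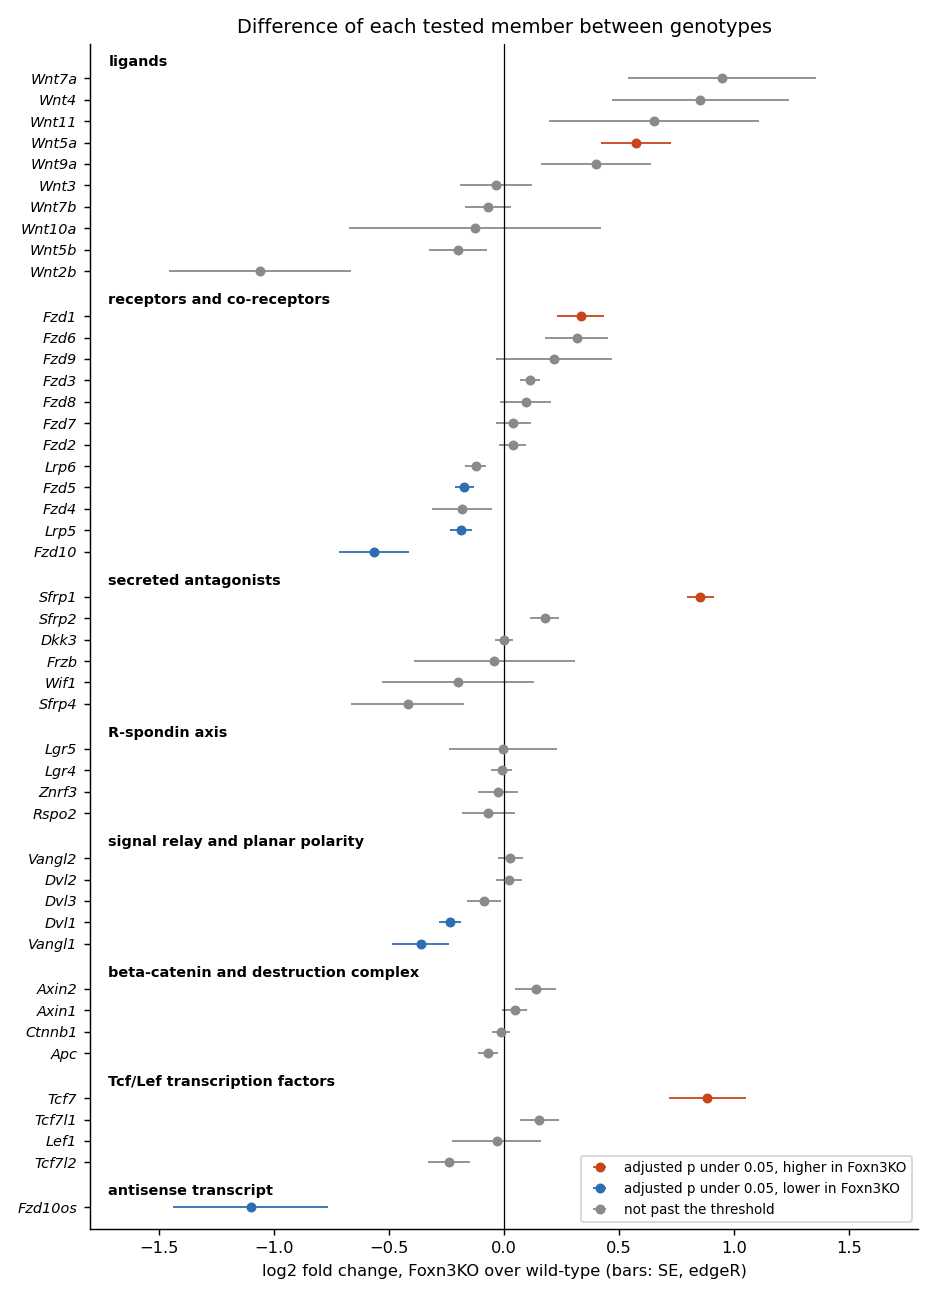
Log2 fold change of the 46 tested members, Foxn3KO over wild-type, with bars of 1 SE from edgeR and grouped by role. Red and blue points passed an adjusted p of 0.05, with Tcf7 (0.88) and Sfrp1 (0.85) the highest of these and Fzd10os (-1.10) the lowest, while grey points did not.

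Sfrp1 (ENSMUSG00000031548), a secreted Frizzled-related protein that binds Wnt ligands away from their receptors, rose in Foxn3KO. It had 38.0 and 40.7 CPM in the wild-type libraries and 72.3 and 69.97 CPM in the Foxn3KO libraries. Both Foxn3KO values were above both wild-type values, and the gap between the groups was wider than the gap within either. The means were 39.4 ± 1.92 and 71.1 ± 1.64 CPM, SD with n = 2 each (log2 fold change 0.85, SE 0.0587, adjusted p = 4.40e-09 by edgeR).

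Sfrp2, the most abundant of the Sfrp genes, had 53.7 and 50.5 CPM in wild-type and 61.95 and 55.7 CPM in Foxn3KO. Its groups did not overlap, but it did not pass, with a log2 fold change of 0.18 (95% interval 0.04 to 0.31, edgeR quasi-likelihood adjusted p = 0.0542). Its call depended on the setting: it passed without a low-count filter (0.0475), with the minimum of 10 counts per library (0.0371), with limma-voom (0.0473) and with the replicate number as a term (0.0257), and not with DESeq2 (0.164). Leaving out Foxn3KO replicate 1 gave 0.10 (adjusted p = 0.556), and leaving out replicate 2 of that group gave 0.25 (0.0314). Without wild-type replicate 1 it was 0.23 (0.00144) and without the other wild-type library 0.14 (0.0779). The 5 secreted Wnt-binding antagonists, Sfrp1, Sfrp2, Sfrp4, Frzb and Wif1, summed to 34.7 and 34.3 FPKM in wild-type and 46.3 and 43.1 in Foxn3KO. Sfrp1 made up 26.0% ± 1.55 of that sum in wild-type and 36.3% ± 1.03 in Foxn3KO, and Sfrp2 made up 69.8% ± 2.30 and 60.9% ± 1.43 (SD, n = 2 each).

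The remaining antagonists were not called. Sfrp4, Frzb and Wif1 were low, at 0.847 to 2.76 CPM in every library, and had log2 fold changes of -0.42, -0.04 and -0.20 with wide 95% intervals that reached from -0.94 to 0.69. Dkk3 had 976 and 992.9 CPM in wild-type and 987 and 979.6 CPM in Foxn3KO, so its groups overlapped. Its log2 fold change was -0.0017, with a 95% interval of -0.08 to 0.08, and a change above that size is outside the interval. Dkk2, an Lrp co-receptor antagonist, was at 3 to 8 counts per library and was not tested.

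Wnt5a (ENSMUSG00000021994), a ligand known for the noncanonical branch, was the 1 ligand called. It had 6.61 and 4.86 CPM in wild-type and 8.65 and 8.35 CPM in Foxn3KO (log2 fold change 0.57, SE 0.152, adjusted p = 0.0113 by edgeR). The groups did not overlap, and the wild-type libraries differed from each other by nearly as much as wild-type replicate 1 from the Foxn3KO libraries. Without wild-type replicate 2 the log2 fold change was 0.37 and the adjusted p 0.0894. With DESeq2 the adjusted p was 0.0498.

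The 3 most abundant ligands were not called. Wnt7b had 13.2 and 13.3 CPM in wild-type and 12.5 and 12.8 CPM in Foxn3KO, with a 95% interval of the log2 fold change of -0.28 to 0.14. Wnt5b, a close relative of Wnt5a, had 8.55 and 8.47 CPM in wild-type and 7.28 and 7.55 CPM in Foxn3KO, a log2 fold change of -0.20 (adjusted p = 0.29 by edgeR) in the opposite direction to Wnt5a. Wnt3 had 4.90 to 5.52 CPM over the 4 libraries and its groups overlapped.

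The rarer ligands had larger and less certain differences. Wnt2b, known from the ciliary margin and pigment epithelium, had 24 and 31 counts in wild-type and 15 and 11 in Foxn3KO, with a log2 fold change of -1.06 (95% interval -1.90 to -0.22, edgeR adjusted p = 0.066). Wnt4 had 14 and 16 counts against 33 and 21, and Wnt7a 14 and 12 against 30 and 20, with log2 fold changes of 0.85 and 0.95 and edgeR adjusted p-values of 0.129 and 0.111. In these 3 genes the groups did not overlap in CPM, but none passed the threshold. Wnt9a, Wnt10a and Wnt11 had log2 fold changes of 0.40, -0.13 and 0.65, and the intervals of all 3 included 0. Wnt8b had 12 and 9 counts in wild-type and 3 and 5 in Foxn3KO, values given without a test because the gene was filtered.

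Among the receptors, the dominant Frizzled was slightly lower in Foxn3KO. Fzd5 (ENSMUSG00000045005) had 307.4 and 317 CPM in wild-type and 275.6 and 278.1 CPM in Foxn3KO (log2 fold change -0.17, SE 0.0412, adjusted p = 0.00539 by edgeR). The gap between the groups was larger than the spread within either. Fzd5 lost its call when either Foxn3KO library was left out, with adjusted p-values of 0.148 and 0.113 and log2 fold changes of -0.17 and -0.18, so the size of the difference was about the same.

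Fzd1 (ENSMUSG00000044674) rose and Fzd10 (ENSMUSG00000081683) fell, both canonical branch receptors at low levels here. Fzd1 had 11.4 and 10.6 CPM in wild-type and 13.9 and 13.7 CPM in Foxn3KO (log2 fold change 0.33, SE 0.103, adjusted p = 0.0281 by edgeR). Fzd10 had 6.53 and 7.40 CPM in wild-type and 4.46 and 5.001 CPM in Foxn3KO (log2 fold change -0.56, SE 0.152, adjusted p = 0.0125 by edgeR). Neither pair of groups overlapped. Neither passed with DESeq2 (adjusted p = 0.146 for Fzd1 and 0.0766 for Fzd10), and Fzd1 lost its call when wild-type replicate 2 or either Foxn3KO library was left out (adjusted p = 0.0911, 0.150 and 0.112). Fzd10 lost its call without Foxn3KO replicate 1 (adjusted p = 0.114).

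Fzd10os (ENSMUSG00000072591), transcribed from the strand opposite Fzd10, had 54 and 41 counts in wild-type and 30 and 14 in Foxn3KO. The change on the log2 scale was -1.10 (SE 0.336, adjusted p = 0.0253 by edgeR). Whether the counting used strand is not given in the sources used here, so reads of Fzd10 and Fzd10os cannot be told apart and their 2 calls may not be separate. Fzd10os did not pass with DESeq2 (adjusted p = 0.106), without wild-type replicate 1 (0.136) or without Foxn3KO replicate 2 (0.152).

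The other 7 Frizzled genes were not called. Fzd3 had 209.3 and 203.1 CPM in wild-type and 220.1 and 225.6 CPM in Foxn3KO, a log2 fold change of 0.11 (95% interval 0.02 to 0.20, edgeR adjusted p = 0.0728). Fzd2 (45.4 to 48.7 CPM), Fzd7 (22.2 to 23.7 CPM) and Fzd8 (9.92 to 11.5 CPM) overlapped between the groups. Fzd4, the Norrin receptor of retinal vessels, had 9.64 and 8.06 CPM in wild-type and 7.86 and 7.68 CPM in Foxn3KO and did not pass (log2 fold change -0.18, edgeR adjusted p = 0.358). Fzd6, a planar polarity receptor, had 6.17 and 6.26 CPM against 7.42 and 8.08 CPM (0.31, adjusted p = 0.111 by edgeR). Fzd9 was at 1.77 to 2.81 CPM with overlapping groups.

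Lrp5 (ENSMUSG00000024913), a canonical co-receptor that also serves Norrin in retinal vessels, fell from 117.3 and 122.9 CPM in wild-type to 106.9 and 103.9 CPM in Foxn3KO. The groups did not overlap, and the change on the log2 scale was -0.19 (SE 0.0482, adjusted p = 0.00907 by edgeR). It lost its call without Foxn3KO replicate 1 (adjusted p = 0.059) and without Foxn3KO replicate 2 (0.164). Its paralog Lrp6 had 122.2 and 117.2 CPM against 110.1 and 109.5 CPM, a log2 fold change of -0.12 (95% interval -0.22 to -0.02) that did not pass by this test (edgeR adjusted p = 0.0703) and did under total count scaling (0.035), with the earlier edgeR fit (0.0421) and without wild-type replicate 2 (0.00435). The other leave-out fits of Lrp6 did not pass, with adjusted p-values of 0.132 to 0.377. Summed, the co-receptors stood at 20.9 and 21.1 FPKM in wild-type and 18.98 and 18.6 FPKM in Foxn3KO.

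**Figure D3:**
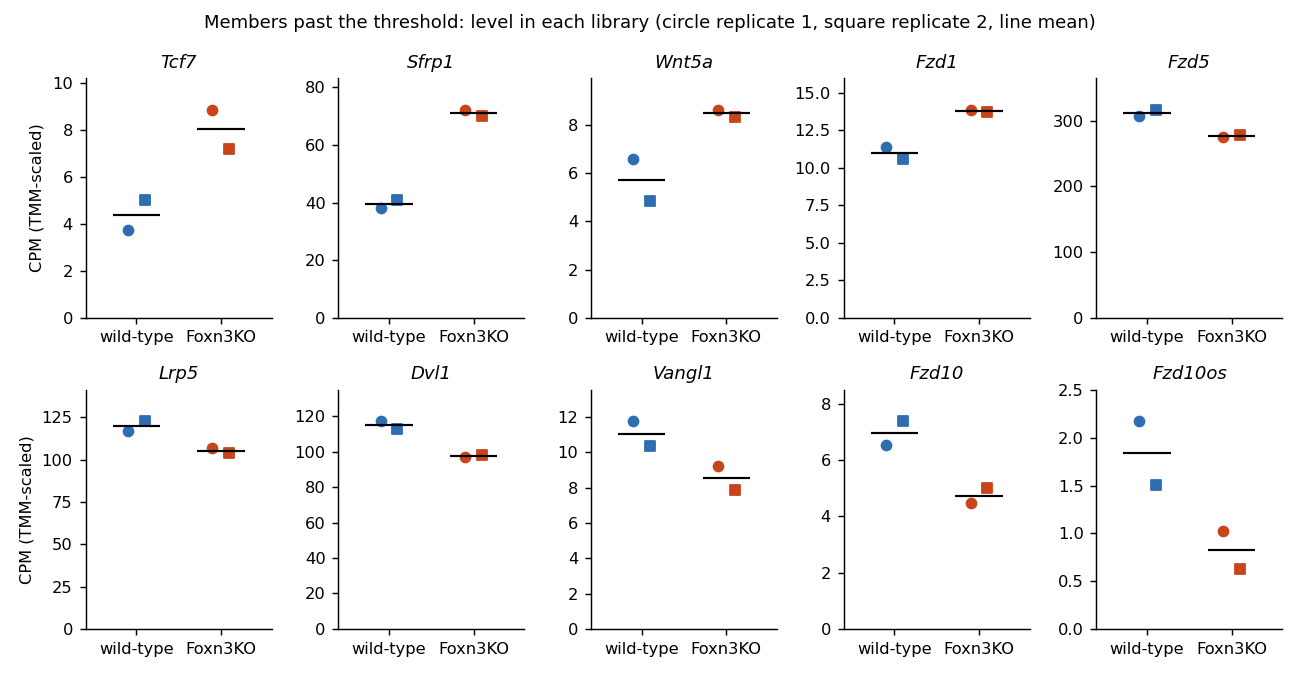
CPM in each library for the 10 members past the threshold, ordered from the largest rise to the largest fall, each panel on its own linear axis from 0. Circles are replicate 1, squares replicate 2 and lines the group means, and in each panel both Foxn3KO values lie on one side of both wild-type values.

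No gene of the R-spondin axis was called. Rspo2, an R-spondin ligand, had 9.44 and 9.90 CPM in wild-type and 9.20 and 9.24 CPM in Foxn3KO. Lgr4, its main receptor here, had 133.1 to 135.9 CPM over all libraries, with a log2 fold change of -0.01 and a 95% interval of -0.11 to 0.08. Lgr5, which marks many adult stem cells, was near 2.14 to 3.16 CPM. Znrf3, the ubiquitin ligase that removes Frizzled, had 19.6 and 19.9 CPM against 18.4 and 20.4 CPM, so its groups overlapped. The related ligase Rnf43 had 22 and 5 counts in wild-type and 9 and 4 in Foxn3KO and was filtered.

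Dvl1 (ENSMUSG00000029071), a Dishevelled protein that relays the signal from Frizzled, fell in Foxn3KO. It had 117.4 and 112.6 CPM in wild-type and 97.2 and 98.2 CPM in Foxn3KO (log2 fold change -0.24, SE 0.048, adjusted p = 0.00162 by edgeR). The groups did not overlap. Dvl1 kept its call in all 13 alternatives tried, though the looser threshold of 0.1 among them cannot remove a call. Its paralog Dvl2 had 55.4 to 59.7 CPM with overlapping groups. Dvl3 had 111.1 and 140.7 CPM in wild-type and 116.3 and 120.6 CPM in Foxn3KO, with the Foxn3KO values between the wild-type ones. Its log2 fold change was -0.09 with all libraries (edgeR adjusted p = 0.445). Leaving out wild-type replicate 1 gave -0.25 (adjusted p = 1.57e-07), and leaving out replicate 2 of that group gave 0.09 (adjusted p = 0.137).

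The planar polarity protein Vangl1 (ENSMUSG00000027860) had 11.8 and 10.3 CPM in wild-type and 9.24 and 7.86 CPM in Foxn3KO (log2 fold change -0.36, SE 0.124, adjusted p = 0.045 by edgeR). The call is close to the threshold and was lost with DESeq2 (0.181), limma-voom (0.0544), without wild-type replicate 1 (0.196) and without Foxn3KO replicate 2 (0.338). Its more abundant paralog Vangl2 had 86.6 and 91.2 CPM against 86.8 and 94.5 CPM, with overlapping groups and a 95% interval of -0.09 to 0.14.

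β-catenin and the destruction complex members were not called. Ctnnb1 had 1079 and 1089 CPM in wild-type and 1083 and 1067 CPM in Foxn3KO, with a log2 fold change of -0.01 and a 95% interval of -0.09 to 0.07. Axin1, the scaffold of the complex, had 70.6 and 69.7 CPM against 70.3 and 74.5 CPM. Apc, a second scaffold, had 354.4 and 377.7 CPM against 344.5 and 352.6 CPM, a log2 fold change of -0.07 (edgeR adjusted p = 0.273). Leaving out 1 library at a time gave -0.12 without wild-type replicate 1 (adjusted p = 0.00248) and -0.02 without the other wild-type library (0.631), and Apc did not pass without either Foxn3KO library (0.746 and 0.555). Axin2, a general feedback target of canonical signalling, had 19.1 and 21.1 CPM in wild-type and 23.5 and 20.6 CPM in Foxn3KO. Its groups overlapped, and its log2 fold change of 0.14 had a 95% interval of -0.05 to 0.33 (edgeR adjusted p = 0.311).

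Among the Tcf/Lef factors, Tcf7 (ENSMUSG00000000782), a β-catenin partner that is itself a known target of the pathway, rose in Foxn3KO. It had 3.71 and 5.01 CPM in wild-type and 8.86 and 7.19 CPM in Foxn3KO (log2 fold change 0.88, SE 0.168, adjusted p = 9.12e-04 by edgeR). The groups did not overlap, and leaving out 1 library at a time gave log2 fold changes of 0.70 to 1.13, each past the threshold. Tcf7l2, which acts in the same complex, had 22.99 and 27.8 CPM in wild-type and 21.5 and 21.6 CPM in Foxn3KO and did not pass (log2 fold change -0.24, edgeR adjusted p = 0.0659). It passed without wild-type replicate 1 (-0.37, adjusted p = 3.10e-04), under total count scaling (0.0456) and with the replicate number as a term (0.0421). Leaving out wild-type replicate 2 gave a log2 fold change of -0.09 (adjusted p = 0.512 by edgeR), and the fits without either Foxn3KO library did not pass (0.180 and 0.166).

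Tcf7l1, known mainly as a repressor, was the most abundant of the family and had 17.7 and 18.7 CPM in wild-type and 20.4 and 20.05 CPM in Foxn3KO (log2 fold change 0.15, edgeR adjusted p = 0.216). Lef1 had 4.15 and 5.89 CPM against 5.60 and 4.15 CPM, so its groups overlapped. The share of Tcf7 in the Tcf/Lef sum of FPKM was 15.1% ± 1.61 in wild-type and 24.6% ± 2.33 in Foxn3KO, and that of Tcf7l2 was 29.99% ± 0.914 and 22.5% ± 1.24 (SD, n = 2 each).

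Groups of 2 that do not overlap are common in these data and carry no test: 12 of the 46 tested members (26.1%) were wholly higher and 15 (32.6%) wholly lower in Foxn3KO, where 29.9% and 30.5% of all tested genes were. In the authors' deposited table, 6 members had an adjusted p under 0.05, namely Sfrp1, Tcf7 and Wnt5a with positive and Fzd5, Lrp5 and Dvl1 with negative log2 fold changes, and all 6 were called here. That table has 16.0% of the genes with an adjusted p under the same threshold. DESeq2 run here on the same counts called 6 members too, beside 16.0% of the genes to which it gave an adjusted p. The submitters' notes also name DESeq2, and both called 2437 of 15248 genes. The match therefore repeats the same test and is no separate support.

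The other genes of the pathway were taken from 8 lists of 99 genes outside the members, of which 91 were tested. Of these, 26 were called (28.6%, beside 21.9% of all tested genes), 18 higher and 8 lower in Foxn3KO, and their median log2 fold change was 0.02. Nkd1, Wls, Notum and Apcdd1 stand in more than 1 list. All called genes of a list are named, so those beyond the first 2 per direction were added after their values were seen. Of the 26, 12 kept their calls in all 13 alternatives: Wls, Adgra2, Kremen1, Cby1, Nkd1, Csnk1g1, Zcchc12, Celsr1, Daam2, Fuz, Intu and Wdpcp. Msx1 kept its call wherever it had an adjusted p, but DESeq2 gave it none and the minimum of 10 counts per library removed it. Without Foxn3KO replicate 1, 13 were called (these 12 and Msx1), and the calls lost were those of Gpc4, Trabd2b, Reck, Ror1, Ppp2ca, Pygo1, Tle2, Tnik, Ccnd1, Tnfrsf19, Celsr3, Daam1 and Nfatc4.

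Of 7 tested genes that process and release ligands, 3 rose and none fell (42.9% called, beside 21.9% of all tested genes). Wls, the carrier that brings Wnt proteins to the cell surface, had 1.61 and 1.99 CPM in wild-type and 4.26 and 5.22 CPM in Foxn3KO (log2 fold change 1.38, SE 0.214, adjusted p = 1.24e-04 by edgeR). The groups did not overlap, and the level was low throughout. Gpc4, a cell-surface heparan sulfate proteoglycan, and Trabd2b, a protease that inactivates Wnt proteins, rose by 0.28 and 0.81 (edgeR adjusted p = 0.0301 and 0.0443). Porcn, which attaches the lipid to Wnt proteins, had a log2 fold change of -0.09 and did not pass.

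Of 11 further receptors and co-receptors, 4 fell and none rose (36.4% called, beside 21.9% of all tested genes). Kremen1, which removes Lrp co-receptors together with Dkk proteins, had 106.7 and 106.1 CPM in wild-type and 79.4 and 83.1 CPM in Foxn3KO (log2 fold change -0.39, SE 0.0494, adjusted p = 1.35e-05 by edgeR). Adgra2 and Reck, partners in a receptor complex for Wnt7 ligands, had log2 fold changes of -0.46 and -0.29 (edgeR adjusted p = 9.72e-05 and 0.00333). Adgra2 stood at 37.0 and 40.3 CPM in wild-type and 27.6 and 28.6 CPM in Foxn3KO. Ror1, a receptor tyrosine kinase of the noncanonical branch, was lower by a log2 fold change of -0.39 (adjusted p = 0.00764 by edgeR), while Ror2, Ryk and the Norrin gene Ndp were not called.

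Of 12 intracellular and secreted antagonists on a separate list, 2 rose and none fell. That is 16.7% called, under the 21.9% of all tested genes. Nkd1, an inhibitor of Dishevelled that canonical signalling induces, had 71.1 and 69.97 CPM in wild-type and 104.98 and 95.6 CPM in Foxn3KO (log2 fold change 0.51, SE 0.0546, adjusted p = 1.69e-06 by edgeR). Cby1, which binds β-catenin and also sits at the base of cilia, had 54.7 and 53.3 CPM against 80.1 and 81.0 CPM (log2 fold change 0.58, edgeR adjusted p = 2.06e-07). In the destruction complex list, 2 of 17 rose (11.8%, also under the share of all tested genes), both kinase or phosphatase subunits: Csnk1g1 by 0.31 and Ppp2ca by 0.12. Gsk3a and Gsk3b, the kinases that mark β-catenin, had log2 fold changes of 0.02 and 0.01 and did not pass. Of 11 nuclear co-factors (27.3% called), Pygo1 (0.21) and Tnik (0.16) rose and the corepressor Tle2 (-0.34) fell.

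Of 11 tested genes listed here as readouts of canonical signalling, 5 rose and 1 fell (54.5% called, beside 21.9% of all tested genes). The list was chosen with earlier results of these data known, so this share is a description and no separate support. The list holds no members of the rule. Its median log2 fold change of 0.49 is the value of Sp8, which was not called. Sp8 had 16 and 19 counts in wild-type and 29 and 20 in Foxn3KO. Zcchc12 had 22.7 and 21.5 CPM in wild-type and 39.4 and 36.9 CPM in Foxn3KO (log2 fold change 0.79, SE 0.0722, adjusted p = 2.10e-07 by edgeR). Msx1 (1.63) and Tnfrsf19 (0.59) rose from levels under 3.4 CPM, and Wls and Nkd1 are given above. Ccnd1, the cyclin that drives progenitor division and by far the most abundant gene of the list, fell from 3545 and 3709 CPM to 3203 and 3184 CPM (-0.18, edgeR adjusted p = 0.00377), and it lost its call without Foxn3KO replicate 1 and without Foxn3KO replicate 2 (highest adjusted p = 0.338). Myc, Sp8, Fgf9, Notum and Apcdd1 were not called. Neither was Axin2, which is a member and so outside this list (log2 fold change 0.14). Lef1, Lgr5 and Znrf3, also members, were not called (-0.03, -0.007 and -0.03), while the member Tcf7 was called higher (0.88). Msx1 is also a ciliary margin marker. Of that marker list, Gja1, Otx1 and Mab21l2 also rose, by 1.54, 1.24 and 0.24 on the log2 scale. Rdh10 and Cdon of the same list fell, with log2 fold changes of -0.40 and -0.17, and its other tested genes were not called.

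Of 20 genes of the planar polarity and noncanonical branch, 3 rose and 2 fell. That is 25% called, near the 21.9% of all tested genes. Celsr1, a core planar polarity cadherin, had 14.4 and 13.7 CPM in wild-type and 28.5 and 31.0 CPM in Foxn3KO (log2 fold change 1.08, SE 0.0831, adjusted p = 1.94e-08 by edgeR). Its paralog Celsr3 fell by 0.18 (edgeR adjusted p = 0.00929) and Celsr2 did not pass (0.11). The formins Daam2 and Daam1, which link Dishevelled to the cytoskeleton, rose by 0.87 and 0.13. Nfatc4 fell by 0.35, and none of the 3 Prickle genes was called.

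Of 6 planar polarity effectors that act at cilia, 3 rose and none fell (50% called, beside 21.9% of all tested genes). Intu had 37.1 and 34.6 CPM in wild-type and 63.7 and 63.6 CPM in Foxn3KO (log2 fold change 0.83, SE 0.0598, adjusted p = 8.68e-09 by edgeR). Wdpcp rose by 1.09 and Fuz by 0.43 (edgeR adjusted p = 7.77e-08 and 1.39e-04), and these 3 belong to a complex that helps to build cilia. Invs and Ankrd6, which are not in that complex, did not pass.

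**Figure D4:**
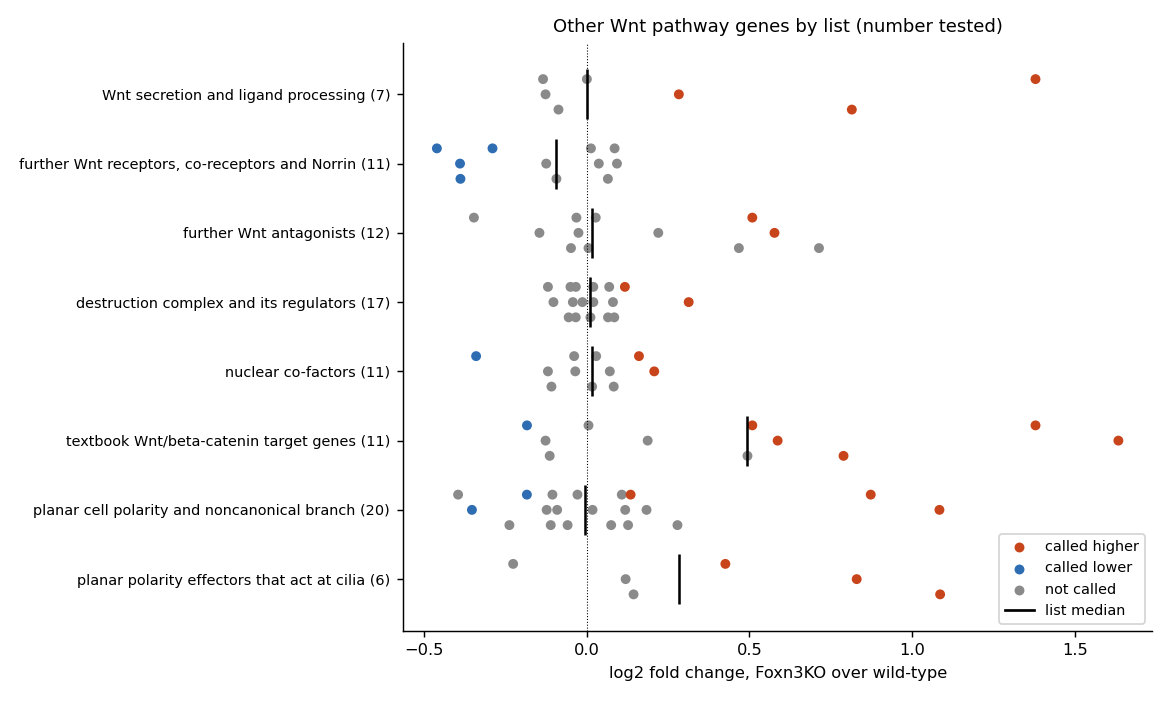
Log2 fold change, Foxn3KO over wild-type, of the tested genes in the 8 other lists, with 1 point per gene and a black line at each list's median. Red points were called higher and blue lower, with the highest median, 0.49, in the canonical readout list and the lowest, -0.09, in the further receptors.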

How the data were processed

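Total RNA of 4 embryonic retinas was sequenced from strand-specific libraries with molecular identifiers, per the labels' protocols. The deposited table holds read counts per gene and library, without normalization, and the authors' FPKM values. The authors also deposited a mean signal per gene and, for the genotype comparison, log2 fold changes, their standard errors and raw and adjusted p-values. The submitters' processing notes name mm39 and DESeq2. The aligner, the annotation and the use of strand or molecular identifiers are not given in the sources used here. No gene had fewer than 16 counts in all, and rarer genes were not analysed here.

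Of 18471 genes, 17300 passed filterByExpr. After TMM scaling, genotype was tested by edgeR 4.0.16 under R 4.3.3 (edgeR 4 quasi-likelihood fit, genotype as the only term, two-sided, Benjamini-Hochberg over all tested genes, threshold 0.05). SE and 95% intervals came from the fold change and F statistic. The procedure was tested on simulated data. A limit of 3 counts equals 0.103 to 0.134 CPM, for counting error only. Nothing in the labels says that libraries share a litter.

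The members and lists were chosen with earlier results of these data known. Each member is named; called members and, of the others, those above 10 CPM are given with values. In each further list the 2 called genes per direction with the smallest p were to be named. The other called genes were added after their values were seen. Alternatives were RLE and total count scaling, no filter or a minimum of 10 counts per library, limma-voom (limma 3.58.1), DESeq2 1.42.0, the legacy edgeR fit, a threshold of 0.1, a replicate term, and fits without 1 library at a time. Promoters were RefSeq's on GRCm38.p6, and no coordinates were joined to the counts. Figures used matplotlib 3.10.9.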

Additional observations from a re-analysis of the deposited data

How the results depend on the processing

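Sfrp1, Dvl1 and Tcf7 kept their calls in all 13 alternatives. The looser threshold of 0.1 is among the 13 and cannot remove a call. DESeq2 called 6 of the members, all among the 10 called by edgeR, 3 of them lower, and 2437 of all genes. The other scalings, filters, fits and thresholds gave 10 to 15 called members. With an adjusted p under 0.1, 15 were called. Apc, Dvl3, Fzd3, Lrp6, Rnf43, Sfrp2, Tcf7l2 and Wnt2b were called in at least 1 alternative, leave-out fits included, but not with all libraries and the settings of the report. Replicate numbers are shared by the genotypes but give no sign of pairing: the correlation of the replicate differences of both genotypes was 0.00526 over 17300 genes. With the replicate block 12 members were called, including the same 10, and 4222 of all genes. Leaving out 1 library at a time, with the lone sample assumed to vary like the other group, gave 6 to 13 called members, 2 to 6 higher and 2 to 8 lower, 13 to 34 other pathway genes, 2323 to 5067 genes in all and member medians of -0.0226 to 0.0171. Without wild-type replicate 1, 13 members were called. The fits without a wild-type library take their spread from the Foxn3KO pair alone. Total count scaling moved the member median to -0.03. Of the ligands, those with under 40 counts per library had the widest intervals, and whether depth or the spread between libraries limits them was not tested.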
